A study of Mus musculus with 41 samples.

Results

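The cells described here are single cells of fetal mouse lung set apart by their level of Vcam1, the gene for the cell surface protein CD106. Vcam1-high cells held 100 CPM of Vcam1 or more, where CPM is a gene's count scaled so that all counts of the cell sum to 1000000. Vcam1-low cells held less than 100 CPM. The members were thus chosen by their own measured Vcam1 level, and by this rule 16 of the 26 cells were Vcam1-high and 10 were Vcam1-low, out of 41 samples in the study as a whole.

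The study asked how glucocorticoids act on lung mesenchyme before birth. The single cells came from E18.5 lungs of wild-type C57Bl6/J mice whose mothers were injected at E17.5, 24 hours before harvest, with 2 mg/kg dexamethasone, a synthetic glucocorticoid, in 15 cells, or with saline in 11 cells. Cells were caught and turned into libraries one by one on the C1 microfluidic system, and per the labels red blood cells were lysed, while no selection by cell type is named. A separate set of 4 libraries at E18.5 held cells selected for CD106 (CD106+, 2 libraries) or cells without it (CD106-, 2 libraries). No treatment is given for these 4 libraries in the labels, and how CD106 was selected is described there only for chromatin samples that are not analysed here.

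VCAM1 is an adhesion molecule that binds integrin alpha4beta1 on leukocytes. It is known from inflamed endothelium, and in the developing lung it also marks a group of interstitial fibroblasts. Lung mesenchyme holds matrix fibroblasts, which carry the transcription factor Tcf21 and lay down and organise interstitial matrix, and myofibroblasts, which carry smooth muscle actin (Acta2) and take part in forming alveolar septa.

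Total counts were 306290 to 1781606 in the 11 Vcam1-high dexamethasone cells, 215623 to 957840 in the 4 Vcam1-low dexamethasone cells, 991923 to 1480780 in the 5 Vcam1-high saline cells and 879285 to 1787997 in the 6 Vcam1-low saline cells. The median number of genes with a value above 0 was 3319 in Vcam1-high dexamethasone, 4050.5 in Vcam1-low dexamethasone, 5605 in Vcam1-high saline and 5037.5 in Vcam1-low saline cells. Thinned to 757179 counts per cell, with 3 shallower cells left out, the medians were 3115 genes in Vcam1-high dexamethasone, 3980 in Vcam1-low dexamethasone, 5098 in Vcam1-high saline and 4481.5 in Vcam1-low saline cells. The labels name no animal or litter for any cell, so each treatment was read as 1 sample. The column names of the 2 treatments also differ in their prefix, and the labels do not say whether the 2 treatments were captured or sequenced together, so treatment and any such difference cannot be told apart. Differences between Vcam1-high and Vcam1-low cells were therefore taken within each treatment, as descriptions of these cells with no test.

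Vcam1 (chromosome 3, 116110020 to 116129688 in GRCm38.p6, the build of all positions given) itself chose the sets, and its values are a description. In dexamethasone cells, 11 of 15 were Vcam1-high (73.3%, exact Clopper-Pearson 95% interval 44.9 to 92.2%). In saline cells, 5 of 11 were Vcam1-high (45.5%, interval 16.7 to 76.6%). These intervals take the cells as independent, although each treatment was read as 1 sample, so they do not compare the treatments. Vcam1 stood at 109, 888 and 3158 CPM (lowest, median, highest) in the 11 Vcam1-high dexamethasone cells, against 82, 43, 1 and 0 CPM in the 4 Vcam1-low dexamethasone cells. The 5 Vcam1-high saline cells held 1520, 1444, 605, 160 and 109 CPM, against 0, 0 and 89 CPM (lowest, median, highest) in the 6 Vcam1-low saline cells. The 2 lowest Vcam1-high cells, dexamethasone cell 7 and saline cell 9, lay at 108.6 and 109.4 CPM, and the highest Vcam1-low cells, saline cell 6 and dexamethasone cell 1, at 89.1 and 81.9 CPM, so cells just inside and just outside the threshold were close to each other.

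Markers of matrix fibroblasts were higher in Vcam1-high cells in both treatments, among them the transcription factors Tcf21 and Meox2. A gene was counted as higher or lower when its mean log2(CPM + 1) differed by 1 or more in the same direction within dexamethasone and within saline. On this scale a difference understates the change of genes near 0 CPM. Of 7130 genes described, those with a mean of 10 CPM or more and a value above 0 in at least 4 cells, 650 were counted as higher (9.12%) and 559 as lower (7.84%) in Vcam1-high cells. Of 18 matrix fibroblast markers described, leaving out Vcam1, 12 were counted as higher and 1 as lower. The marker lists were drawn up with earlier results of these data known, so such counts are a description. By log2 ratios of mean CPM, in place of differences of mean log2 values, 4 of these markers were counted as higher. Within dexamethasone alone, 1860 genes described lay 1 or more higher (26.1%) and 2020 lower (28.3%), and within saline alone 2209 higher (31%) and 1838 lower (25.8%). The median combined difference of the matrix fibroblast markers, the mean of the differences within each treatment, was 3.04, beside 0.04 over all genes described.

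Tcf21, a basic helix-loop-helix factor needed for lung mesenchyme development (chromosome 10, 22817263 to 22820143), stood at 775, 2170 and 4923 CPM (lowest, median, highest) in Vcam1-high dexamethasone cells, against 4282, 1386, 0 and 74 CPM in Vcam1-low dexamethasone cells. In saline, the 5 Vcam1-high cells held 5754, 2362, 2253, 870 and 773 CPM, against 0.741, 26.4 and 1971 CPM (lowest, median, highest) in Vcam1-low cells. Every Vcam1-high cell carried Tcf21 at 773 CPM or more, while Vcam1-low cells were split between high and near 0, so the sets overlapped. Summed over cells, Tcf21 made up 2104 CPM (exact Poisson 95% interval 2076 to 2132) in Vcam1-high and 1595 CPM (1549 to 1643) in Vcam1-low dexamethasone cells, and 2284 CPM (2246 to 2322) in Vcam1-high and 546 CPM (530.2 to 561) in Vcam1-low saline cells. These intervals treat reads as independent and leave out the spread between cells. The combined difference of Tcf21 was 4.86.

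Meox2, a homeobox factor of mesenchyme (chromosome 12, 37108540 to 37179534), stood at 3.62, 160.0 and 3236 CPM (lowest, median, highest) in Vcam1-high dexamethasone cells, against 771, 0, 0 and 0 CPM in Vcam1-low dexamethasone cells. In saline, Vcam1-high cells held 0, 999, 1216, 0 and 285 CPM, against 0, 4.25 and 33.1 CPM (lowest, median, highest) in Vcam1-low saline cells. All 11 Vcam1-high dexamethasone cells carried Meox2, but 2 of the 5 Vcam1-high saline cells had none. The combined difference of Meox2 was 4.33.

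The secreted and surface products of matrix fibroblasts went the same way. Mfap4, a microfibril-associated glycoprotein (chromosome 11, 61485431 to 61488708), stood at 3702, 15291 and 22594 CPM (lowest, median, highest) in Vcam1-high dexamethasone cells, against 19512, 13722, 922 and 23.2 CPM in Vcam1-low dexamethasone cells. Mfap4 stood at 2690, 9440, 11643, 3583 and 1110 CPM in the 5 Vcam1-high saline cells, against 3.92, 387 and 11279 CPM (lowest, median, highest) in Vcam1-low saline cells. The combined difference of Mfap4 was 3.83. The growth factors Wnt2, Figf (VEGF-D) and Fgf10 were counted as higher, with combined differences of 4.41 for Wnt2, 3.41 for Figf and 2.53 for Fgf10, the mesenchymal ligand that drives branching of the airway epithelium. The cadherin Cdh11 (3.53), the integrin ligand nephronectin (Npnt, 2.98), the transmembrane collagen Col13a1 (3.22), the surface receptor Plxdc2 (3.85), the cytoskeletal linker Macf1 (2.47) and the actomyosin regulator Limch1 (3.10) made up the rest of the 12. The T-box factor Tbx4 was counted as lower, at -2.38 combined. Itga8, Tbx5, Pdgfra, Bmper and Angpt1 met the rule in neither direction. Pdgfra, the PDGF receptor of alveolar fibroblast precursors, differed by -2.37 in dexamethasone and 0.13 in saline.

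**Figure D1:**
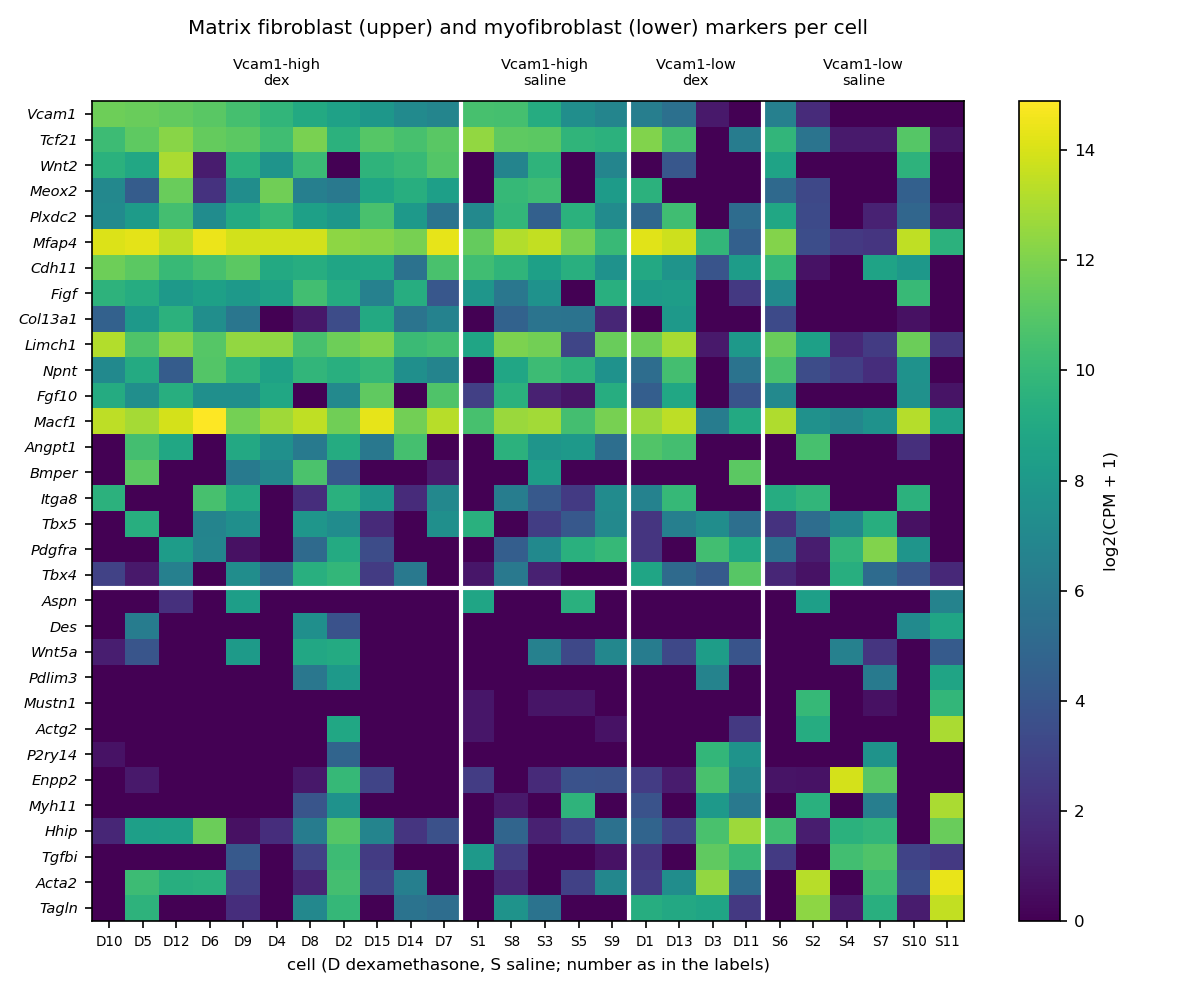
Level of each matrix fibroblast marker (upper block) and myofibroblast marker (lower block) in each of the 26 cells, as log2(CPM + 1) on a colour scale, with cells ordered by Vcam1 within each set and the Vcam1-high sets left of the Vcam1-low sets. Tcf21 was at 773 CPM or more in all 16 Vcam1-high cells, and at 74 CPM or less in 6 of the 10 Vcam1-low cells.

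Markers of myofibroblasts were on the other side. Of 13 described, 7 were counted as lower and 0 as higher in Vcam1-high cells, with a median combined difference of -2.57 beside 0.04 over all genes described. With the threshold at 200 CPM of Vcam1, 2 were counted as lower. Acta2, smooth muscle actin (chromosome 19, 34240336 to 34255585), stood at 0, 7.37 and 1375 CPM (lowest, median, highest) in Vcam1-high dexamethasone cells, against 5.28, 157, 5730 and 37.1 CPM in Vcam1-low dexamethasone cells. The 5 Vcam1-high saline cells held 0, 2.02, 0, 6.23 and 120 CPM, against 0, 613 and 21667 CPM (lowest, median, highest) in Vcam1-low saline cells. High Acta2 was thus found in some Vcam1-low cells and not in others, and 2 Vcam1-high dexamethasone cells, 5 and 2, also held over 1000 CPM. The combined difference of Acta2 was -3.36.

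The actin-binding protein transgelin (Tagln) differed by -3.70 combined, smooth muscle myosin (Myh11) by -3.05 and the Hedgehog-binding protein Hhip by -3.10. Enpp2, which makes lysophosphatidic acid, differed by -3.01, the secreted matrix protein Tgfbi by -3.35 and the nucleotide receptor P2ry14 by -2.57. Without dexamethasone cell 3 the number of matrix fibroblast markers counted as higher was 11, and without saline cell 7 the number of myofibroblast markers counted as lower was 5, the lowest values with any 1 cell left out.

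The promoters of a marker from each side are printed because Meox2 and Acta2 lie on opposite sides of the comparison. They are the 300 bases that start 250 before the annotated start, from RefSeq in GRCm38.p6, read 5′ to 3′ on the gene's strand, for Meox2 at chr12:37108290-37108589 (plus strand) and for Acta2 at chr19:34255324-34255623 (minus strand). For Acta2 the start in the promoter table lies within the gene record given above, downstream of the record's outer end. Capitals mark matches to the E-box CANNTG, the letters bound by the Tcf21 class of factors, and to the TATA motifs TATAAA and TATATAA, searched on both strands.
Meox2: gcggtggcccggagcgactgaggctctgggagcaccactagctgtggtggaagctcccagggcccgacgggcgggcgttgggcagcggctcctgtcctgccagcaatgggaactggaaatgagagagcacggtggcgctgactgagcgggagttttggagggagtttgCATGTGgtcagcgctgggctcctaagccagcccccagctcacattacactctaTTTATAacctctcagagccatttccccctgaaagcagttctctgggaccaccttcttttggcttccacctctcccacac
Acta2: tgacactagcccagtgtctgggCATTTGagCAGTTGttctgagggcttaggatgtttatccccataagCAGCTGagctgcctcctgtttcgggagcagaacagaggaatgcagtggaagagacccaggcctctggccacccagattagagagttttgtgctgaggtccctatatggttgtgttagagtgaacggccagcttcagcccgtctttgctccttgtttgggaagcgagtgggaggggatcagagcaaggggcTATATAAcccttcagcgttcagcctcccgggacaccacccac
Meox2 held 1 E-box and 1 TATAAA match on the opposite strand, and Acta2 held 3 E-boxes and 1 TATATAA match. The promoter of Tcf21, searched in the same way and not printed, held 0 matches to each motif. CANNTG was present in 72.3% of all 32851 promoters of this length, TATAAA in 13.6% and TATATAA in 3.24%. Among the matrix fibroblast markers 8 of 12 with an entry held CANNTG, and among the myofibroblast markers 5 of 8. These shares are close to the share of all promoters, and a match is a description of letters and not of a bound site.

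The 10 Vcam1-low cells were not of one kind. Dexamethasone cells 1 and 13 and saline cells 6 and 10 held 4282, 1386, 911 and 1971 CPM of Tcf21, within the range of Vcam1-high cells. The other 6 Vcam1-low cells held 0 to 74 CPM of Tcf21. Of these 6, dexamethasone cell 3 and saline cells 2, 7 and 11 held 5730, 9859, 1215 and 21667 CPM of Acta2. Dexamethasone cell 11 and saline cell 4 held 37.1 and 0 CPM of Acta2, but 6729 and 716 CPM of Hhip and 478 and 908 CPM of Pdgfra. Dexamethasone cell 11 was the shallowest of all cells, at 215623 counts, and its epithelial markers summed to 12554 CPM.

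With the 6 cells under 500 CPM of Tcf21 left out, a setting added once the data had been seen, 11 Vcam1-high and 2 Vcam1-low dexamethasone cells and 5 Vcam1-high and 2 Vcam1-low saline cells remained. All 6 cells left out were Vcam1-low, so this setting itself removes the difference in Tcf21 and bears on genes that go with it. Of the matrix fibroblast markers, Bmper and Col13a1 were then counted as higher and Itga8 (-4.23) and Tbx4 (-1.72) as lower, and 0 myofibroblast markers were counted as lower. The combined difference of Adh1 was then 0.05, and that of Mfap4 turned to -0.64, of Limch1 to -1.42 and of Acta2 to 0.18. The Vcam1-low side of these values rests on 4 cells. Its 2 saline cells, 6 and 10, held 11733 and 10246 CPM of endothelial markers in sum, against 296 to 15828 CPM in the 5 Vcam1-high saline cells. The part of these markers in the values was not tested. With the 6 cells at 1000 CPM of Acta2 or more left out instead, a setting also added once the data had been seen, 6 matrix fibroblast markers were counted as higher and 3 myofibroblast markers as lower.

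**Figure D2:**
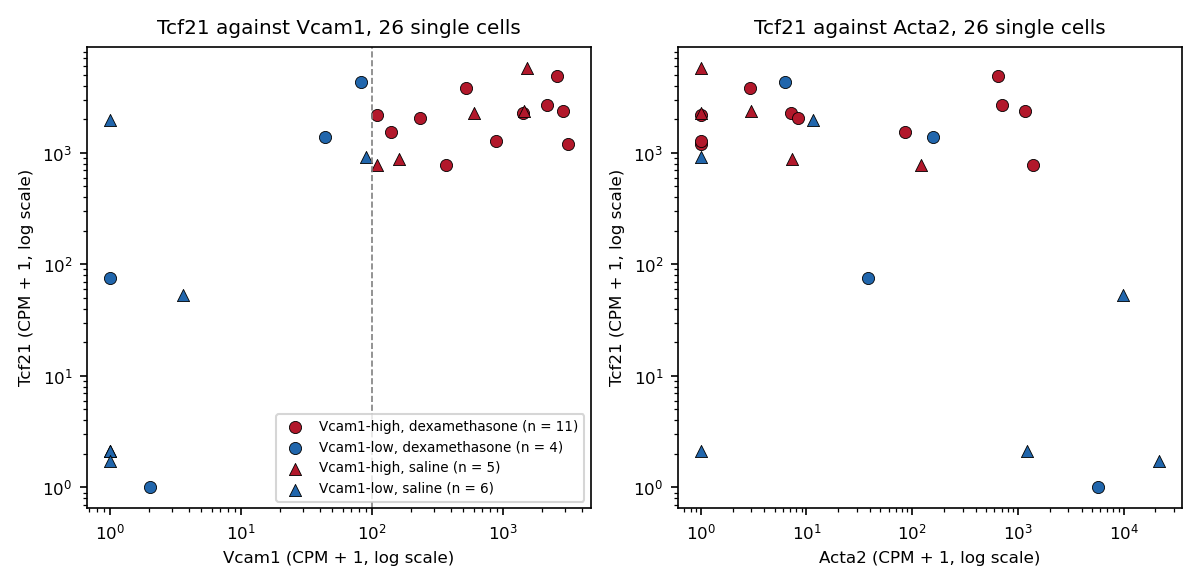
Tcf21 against Vcam1 (left) and against Acta2 (right) in the 26 cells, each as CPM + 1 on log axes, with circles for dexamethasone and triangles for saline, red for Vcam1-high and blue for Vcam1-low cells, and a dashed line at the Vcam1 threshold of 100 CPM. The 4 Vcam1-low cells with 911 CPM of Tcf21 or more lie level with the Vcam1-high cells, and the 4 Vcam1-low cells with the most Acta2 (1215 CPM or more) lie at 52 CPM of Tcf21 or less.

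The genes with the largest differences in both treatments included several that belong to neither marker list. These were picked for their difference, so their values are a description. The leading higher genes included Isoc1, Sqstm1, Slc1a3, Tcf21, Gsn, Heatr6, Col18a1, Rin3, Meox2, Tmpo and Adh1. Isoc1 stood at 7.68, 257 and 1913 CPM (lowest, median, highest) in Vcam1-high dexamethasone cells, against 1.32, 56.3, 5.22 and 0 CPM in Vcam1-low dexamethasone cells. In saline the 5 Vcam1-high cells held 200, 26.2, 375, 470 and 283 CPM of Isoc1, against 0, 0.654 and 128 CPM (lowest, median, highest) in Vcam1-low cells. Most Vcam1-high cells lay above most Vcam1-low cells, with overlap in each treatment.

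Adh1, an alcohol dehydrogenase that oxidises retinol, stood at 811, 8342 and 17094 CPM (lowest, median, highest) in Vcam1-high dexamethasone cells, against 8834, 5634, 9.40 and 329 CPM in Vcam1-low dexamethasone cells. In saline, Adh1 stood at 2465, 4723, 8932, 2779 and 9419 CPM in Vcam1-high cells, against 0, 905 and 5404 CPM (lowest, median, highest) in Vcam1-low cells. All 16 Vcam1-high cells expressed it strongly. The combined differences of the other leading genes were 4.98 for the autophagy receptor Sqstm1, 4.27 for the glutamate transporter Slc1a3, 4.45 for the actin-severing protein gelsolin (Gsn), 4.12 for Heatr6, 4.09 for the basement membrane collagen Col18a1, 4.53 for the Rab regulator Rin3 and 3.67 for the nuclear lamina protein Tmpo. Among cells with 500 CPM of Tcf21 or more, Isoc1, Sqstm1, Heatr6, Col18a1, Rin3 and Tmpo still met the rule, at 4.05, 3.17, 3.01, 2.92, 4.65 and 3.18 combined. Slc1a3, Gsn, Meox2, Tcf21 and Adh1 did not. The only Vcam1-low saline cells in this setting, 6 and 10, were rich in endothelial markers (11733 and 10246 CPM in sum).

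The 8 leading lower genes were Ckb, Ednrb, Tm9sf1, Gem, Crispld2, Tagln, Klhdc8b and Med16. Ednrb, the endothelin receptor type B, stood at 0, 12.3 and 2062 CPM (lowest, median, highest) in Vcam1-high dexamethasone cells, against 63.4, 429, 15764 and 2523 CPM in Vcam1-low dexamethasone cells. In saline the 5 Vcam1-high cells held 1258, 34.3, 22.5, 3.11 and 413 CPM of Ednrb, against 49.0, 1924 and 15982 CPM (lowest, median, highest) in Vcam1-low cells. Levels above 2062 CPM were found only in Vcam1-low cells, among these 26. Ckb, brain-type creatine kinase, was near 0 in 15 of 16 Vcam1-high cells, with 2.46 CPM as the highest in dexamethasone and 111 CPM in saline cell 3, against medians of 618 and 237 CPM in Vcam1-low dexamethasone and Vcam1-low saline cells. The combined differences were -6.29 for Ckb, -5.18 for Ednrb, -5.43 for the small GTPase Gem, -4.48 for the secreted protein Crispld2, -4.47 for Tm9sf1, -3.68 for Klhdc8b and -3.74 for the Mediator subunit Med16. Among cells with 500 CPM of Tcf21 or more, Ckb, Ednrb, Tm9sf1, Gem and Med16 still met the rule, with 2 Vcam1-low cells in each treatment.

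The other gene lists showed smaller shares. All lists, those of matrix fibroblasts and myofibroblasts included, were drawn up with earlier results of these data known. Their counts are therefore set only beside the share over all genes described, 9.12% counted as higher and 7.84% as lower. Of 15 elastic fibre genes, 3 were counted as higher, the assembly factors Fbln5 (combined difference 2.27) and Emilin1 (3.20) and the crosslinking enzyme Loxl1 (2.62), and 1 as lower, Ltbp2 (-2.92). Elastin itself (Eln) differed by -0.998 in dexamethasone and 2.72 in saline. Of 12 proteoglycan and glycoprotein genes, fibronectin (Fn1, 2.58) and osteoglycin (Ogn, 3.32) were counted as higher and tenascin C (Tnc, -1.94) as lower. Among cells with 500 CPM of Tcf21 or more, all 3 turned sign, at -0.87 for Fn1, -0.35 for Ogn and 1.37 for Tnc, and by log2 ratios of mean CPM Tnc differed by 0.193.

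Collagens gave different values in the 2 treatments, with a median difference of the 13 described of -0.08 in dexamethasone and 1.798 in saline. Of these 13 fibrillar and basement membrane collagens, 3 were counted as higher, Col18a1, Col6a2 (2.32) and Col14a1 (2.04), and 1 as lower, Col4a1 (-1.41). Among cells with 500 CPM of Tcf21 or more, Col14a1 was counted as lower (-1.25). Col1a1, the main chain of type I collagen, stood at 3.37, 713 and 4453 CPM (lowest, median, highest) in Vcam1-high dexamethasone cells, against 162, 2201, 409 and 2602 CPM in Vcam1-low dexamethasone cells. Col1a1 stood at 968, 746, 750, 628 and 378 CPM in the 5 Vcam1-high saline cells, against 0, 17.52 and 269 CPM (lowest, median, highest) in Vcam1-low saline cells. The saline sets did not overlap, while the dexamethasone sets did. Col1a1 differed by 5.28 in saline and by -0.55 in dexamethasone, and Col6a1 by 5.33 and -0.14. Whether the treatments themselves differ in this could not be tested with 1 sample each.

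**Figure D3:**
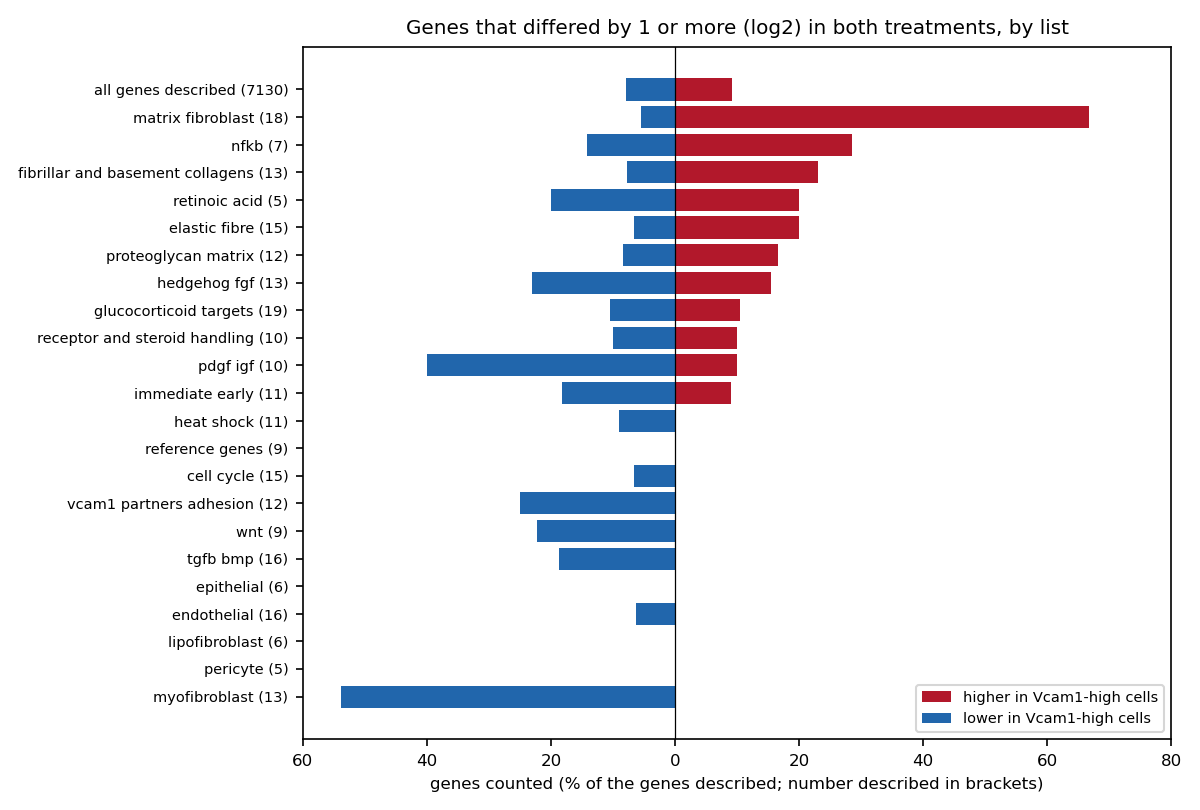
Share of the genes described in each list shown that were counted as higher (red, to the right) or lower (blue, to the left) in Vcam1-high cells, in percent, with the number of genes described in brackets. Lists with few genes described, such as the immune (4) and erythroid (4) lists, and the sex-linked genes are left out. Among the lists shown, matrix fibroblast markers (12 of 18 higher) and myofibroblast markers (7 of 13 lower) stand farthest from all genes described (9.12% higher, 7.84% lower).

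Among ligands and receptors, the insulin-like growth factors were counted as lower in Vcam1-high cells. Of 10 PDGF and IGF genes, the clearance receptor Igf2r was counted as higher (combined difference 1.14), and the ligands Igf1 (-3.10) and Igf2 (-2.07), the signalling receptor Igf1r (-2.54) and the imprinted RNA H19 (-3.68) as lower. Igf1 stood at 0, 1.29 and 4208 CPM (lowest, median, highest) in Vcam1-high dexamethasone cells, against 18.49, 443, 3749 and 116 CPM in Vcam1-low dexamethasone cells. The 5 Vcam1-high saline cells held 34.6, 8.07, 4.82, 199 and 1485 CPM of Igf1, against 4.58, 594 and 1789 CPM (lowest, median, highest) in Vcam1-low saline cells. Single Vcam1-high cells, dexamethasone cell 2 and saline cell 9, reached the level of the Vcam1-low cells. Among cells with 500 CPM of Tcf21 or more, Igf2 was counted as higher (1.66), H19 differed by 1.03 and Igf1 by -2.07 without meeting the rule, and Igf1r was still counted as lower (-1.57). Without cells at 1000 CPM of Acta2 or more, Igf2 and H19 did not meet the rule either (-0.27 and -0.20). Of 13 Hedgehog and FGF genes, the receptors Fgfr3 (2.73) and Fgfr4 (2.39) were counted as higher, and the receptor Fgfr1 (-2.30) and the feedback inhibitors Spry2 (-2.21) and Spry4 (-2.05) as lower. Of 16 TGF-beta and BMP genes, 0 were counted as higher and 3 as lower, the receptor Bmpr2 (-1.77) and the BMP target genes Id1 (-2.15) and Id3 (-2.32). Of 9 Wnt pathway genes, the receptor Fzd1 (-2.65) and the nuclear factor Lef1 (-2.38) were counted as lower and 0 as higher.

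Of 12 adhesion genes, which include VCAM1-binding integrin chains, 0 were counted as higher in Vcam1-high cells. In so short a list this is near the share over all genes described, 9.12%. Counted as lower were the integrin chains Itgb1 (-1.85) and Itga9 (-2.34) and the membrane linker moesin (Msn, -2.41), beside 7.84% over all genes described. Itga4, the alpha chain of the main VCAM1 receptor, differed by 0.58 in dexamethasone and -1.48 in saline. Of 7 NF-kappaB genes, a pathway that induces VCAM1 in endothelium, Nfkb1 (1.95) and Nfkbib (1.12) were counted as higher and the chemokine Cxcl12 (-2.18) as lower.

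Of 10 genes of the glucocorticoid receptor and of steroid handling, Hsd11b1 was counted as higher and the receptor coactivator Ncoa1 (-1.84) as lower. Hsd11b1, the enzyme that regenerates active glucocorticoid from its inert form, stood at 36.9, 2026 and 9376 CPM (lowest, median, highest) in Vcam1-high dexamethasone cells, against 2945, 904, 1.04 and 37.1 CPM in Vcam1-low dexamethasone cells. The 5 Vcam1-high saline cells held 1725, 64.5, 1781, 0.779 and 829.3 CPM of Hsd11b1, against 0, 23.2 and 1439 CPM (lowest, median, highest) in Vcam1-low cells. Its combined difference was 3.16, but -1.32 among cells with 500 CPM of Tcf21 or more and 0.23 without cells at 1000 CPM of Acta2 or more. The receptor Nr3c1 differed by -0.13 in dexamethasone and 0.85 in saline. Of 19 known glucocorticoid target genes, Glul (1.68) and Pdk4 (1.54) were counted as higher and Crispld2 (-4.48) and Hif3a (-4.07) as lower, shares near those over all genes described. With any Vcam1 count as the threshold, Glul differed by -1.23. Among retinoic acid genes, the retinaldehyde dehydrogenase Aldh1a1 (-1.13) was counted as lower.

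Set against each other within a set, dexamethasone and saline cells differed widely, with 1 sample per treatment and no test. In Vcam1-high cells, 15.6% of genes described lay 1 or more higher and 40.6% 1 or more lower in dexamethasone than in saline cells on the log2(CPM + 1) scale, and in Vcam1-low cells 23.6% and 38.6%. Glucocorticoid targets lay higher in 2 and lower in 13 of 19 in Vcam1-high cells, and higher in 5 and lower in 8 in Vcam1-low cells. The early response genes, which are induced by handling and growth factors, lay lower in dexamethasone in 11 of 11 in Vcam1-high cells and in 7 of 11 in Vcam1-low cells. Matrix fibroblast markers lay higher in dexamethasone in 12 of 18 and lower in 1 of 18 in each set.

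The sorted libraries gave a measure that the Vcam1 rule had not used, and here a test was possible. They were compared by edgeR's quasi-likelihood test over 12364 genes with Benjamini-Hochberg adjustment, and 825 genes (6.67%) were higher and 414 (3.35%) lower in CD106+ than in CD106- libraries at an adjusted p under 0.05. Counts of genes moved with single libraries. Without CD106+ library 1 there were 1432 higher and 1324 lower genes, without CD106- library 1 there were 464 and 82, and without CD106- library 2 there were 607 and 79. Library totals were 4987175 to 7133941 counts. The labels do not say that the libraries came from separate animals, and p-values reflect only how these 4 libraries vary. In sorted libraries, fewer cells of a type and less RNA per cell cannot be told apart.

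Matrix fibroblast markers were higher in CD106+ libraries. Of 19 tested, 16 passed the test upwards and 0 downwards, with a median log2 fold change of 4.61 beside 0.05 over all genes tested. The list was drawn up with earlier results of these data known, so its count describes these libraries. Markers of other cell types moved with the fractions. In CD106+ libraries, 7 of 18 epithelial, 4 of 10 mesothelial and 5 of 5 erythroid genes tested were lower and 0 of each list higher, and 9 of 14 endothelial genes were higher. Their part in the differences between fractions was not tested. Vcam1, the gene of the selected protein, stood at 574 and 644 CPM in the CD106+ libraries, against 1.33 and 3.13 CPM in the CD106- libraries (log2 fold change 8.06, SE 0.43, edgeR adjusted p = 3.2e-12). Tcf21 stood at 38.4 and 115 CPM in CD106+ libraries, against 0 and 1.04 CPM in CD106- libraries (log2 fold change 7.10, SE 0.94, edgeR adjusted p = 0.0028). Meox2 stood at 132 and 195 CPM in CD106+ libraries, against 0.571 and 1.74 CPM in CD106- libraries (log2 fold change 7.09, SE 0.44, edgeR adjusted p = 5.9e-11). In all 3 genes the libraries of the fractions did not overlap.

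Mfap4 averaged 2803 ± 1810 CPM in CD106+ and 40.7 ± 4.78 CPM in CD106- libraries (SD, n = 2 each; log2 fold change 6.11, edgeR adjusted p = 2.1e-08). Wnt2, Figf and Fgf10 rose by 8.08, 7.51 and 6.03 on the log2 scale (edgeR adjusted p = 1.2e-06, 1.7e-11 and 2.0e-10). Limch1 and Npnt, both counted as higher in Vcam1-high cells, did not pass, with log2 fold changes of 0.75 and 0.43 (edgeR adjusted p = 0.09 and 0.53). Without CD106+ library 1 both passed upwards (edgeR adjusted p = 0.0028 and 0.0086), and Limch1 also did without CD106+ library 2 (0.024). Tbx4, which was counted as lower in Vcam1-high cells, rose in CD106+ libraries by 3.07 (edgeR adjusted p = 3.5e-04). Macf1 lost its call without CD106- library 1 (edgeR adjusted p = 0.055), and Pdgfra lost its own without CD106- library 1, CD106+ library 1 or CD106+ library 2 (edgeR adjusted p = 0.46, 0.40 and 0.34).

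Myofibroblast markers did not fall in CD106+ libraries, where their median log2 fold change was 1.12. Of 16 tested, 4 passed upwards, Enpp2, Wnt5a, Aspn and Des, and 0 downwards. Without CD106- library 1 none of these 4 passed (edgeR adjusted p = 0.14, 0.24, 0.37 and 0.13). Acta2 stood at 137 and 428 CPM in CD106+ libraries, against 29.3 and 73.3 CPM in CD106- libraries, with a log2 fold change of 2.46 (SE 0.79) and an edgeR adjusted p of 0.21. Under the 10 alternatives the adjusted p of Acta2 ran between 6.9e-14 and 0.21, with log2 fold changes of 1.42 to 3.26, on the side opposite to that in cells. Of the markers counted as lower in Vcam1-high cells, Tagln, Myh11, Hhip, Tgfbi and P2ry14 had log2 fold changes of 1.46, -0.002, 0.97, 1.05 and 0.82 and did not pass (edgeR adjusted p = 0.23, 1.0, 0.091, 0.072 and 0.36). Hhip passed upwards without CD106+ library 1, CD106+ library 2 or CD106- library 2 (edgeR adjusted p = 0.033, 0.045 and 0.043), Tgfbi without CD106+ library 1 or CD106- library 2 (1.8e-08 and 0.018), and Tagln without CD106+ library 1 (0.031). Hhip also passed by limma-voom and without a filter on low counts (adjusted p = 0.037 and 0.017), and Tgfbi did without that filter (edgeR adjusted p = 0.0038).

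**Figure D4:**
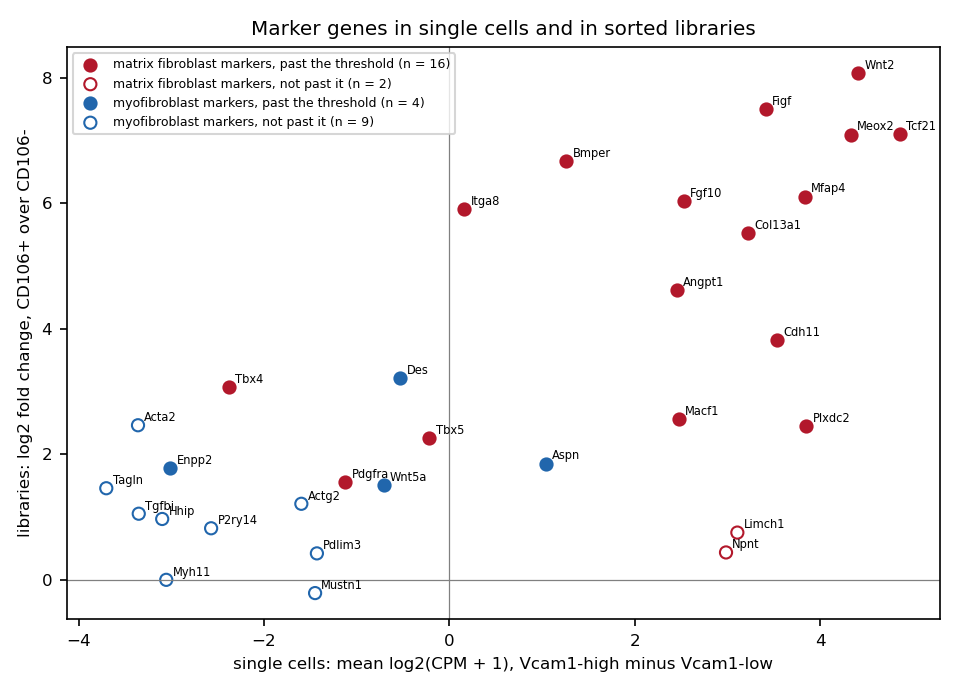
Each matrix fibroblast (red) and myofibroblast (blue) marker by its combined difference between Vcam1-high and Vcam1-low cells in mean log2(CPM + 1) (horizontal) and its log2 fold change between CD106+ and CD106- libraries (vertical), filled where the libraries passed an adjusted p under 0.05. Tcf21 and Meox2 lie at the upper right (log2 fold changes of 7.10 and 7.09), while Acta2 and Tagln lie left of 0 in cells and above 0 in libraries (2.46 and 1.46).

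Over all genes, the cells and the libraries shared more of the higher genes than the share over all genes described. Of the 650 genes counted as higher in Vcam1-high cells, 624 were tested in the libraries, and 107 of these (17.1%) were higher and 3 (0.481%) lower in CD106+ libraries, beside 8.32% and 1.82% of the 6920 genes described and tested. Of the 559 genes counted as lower in Vcam1-high cells, 553 were tested, and 41 (7.41%) were higher and 13 (2.35%) lower in CD106+ libraries. Seen from the libraries, 18.6% of the 576 genes higher in CD106+ were counted as higher in Vcam1-high cells and 7.12% as lower. Without the 6 cells under 500 CPM of Tcf21, the share of genes counted as higher in cells that were higher in CD106+ libraries was 6.78%.

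Among the leading higher genes of the cells, Isoc1, Tcf21, Gsn, Meox2 and Adh1 passed upwards in CD106+ libraries. Isoc1 stood at 236 and 309 CPM in CD106+ libraries, against 78.8 and 87.2 CPM in CD106- libraries (log2 fold change 1.71, SE 0.28, edgeR adjusted p = 1.1e-04). Adh1 stood at 518 and 1215 CPM in CD106+ libraries, against 6.28 and 17.4 CPM in CD106- libraries (log2 fold change 6.18, SE 0.60, edgeR adjusted p = 6.5e-05). The call of Gsn (log2 fold change 1.29, edgeR adjusted p = 0.035) was lost without CD106- library 1, CD106- library 2 or CD106+ library 2 (edgeR adjusted p = 0.14, 0.37 and 0.33). Sqstm1, Slc1a3, Heatr6, Col18a1, Rin3 and Tmpo did not pass, and Col18a1 had a log2 fold change of -0.71 (edgeR adjusted p = 0.15), with a call downwards without CD106+ library 2 (edgeR adjusted p = 1.9e-04). Of the 8 leading lower genes 0 passed. Without CD106+ library 1, Sqstm1, Rin3, Tm9sf1, Klhdc8b and Tagln passed upwards (edgeR adjusted p = 0.013, 0.016, 0.023, 0.0036 and 0.031). Ednrb stood at 307 and 366 CPM in CD106+ libraries, against 128 and 309 CPM in CD106- libraries (log2 fold change 0.62, edgeR adjusted p = 0.36).

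Of the genes that the lists had counted as higher in Vcam1-high cells, Hsd11b1, Fn1, Ogn, Emilin1, Loxl1, Fgfr4, Igf2r, Col6a2, Col14a1 and Pdk4 also passed upwards in CD106+ libraries. Their log2 fold changes were 6.28, 2.87, 3.77, 3.51, 3.04, 2.21, 1.60, 3.49, 2.32 and 2.72 (edgeR adjusted p = 0.0011, 4.3e-06, 2.3e-09, 4.9e-05, 0.0095, 5.7e-04, 0.0016, 1.2e-06, 3.6e-06 and 0.02). Igf2r lost its call without either CD106- library (edgeR adjusted p = 0.27 and 0.064), Loxl1 without CD106+ library 2 (0.61), and Pdk4 without CD106- library 1, CD106- library 2 or CD106+ library 1 (0.10, 0.15 and 0.27). Fbln5, Fgfr3, Nfkb1, Nfkbib and Glul, also counted as higher in cells, did not pass, with log2 fold changes of -0.15, 0.44, 0.39, 0.11 and 0.52 (edgeR adjusted p = 0.87, 0.46, 0.63, 0.97 and 0.32). Of the list genes counted as lower in cells, Spry4, Tnc, Cxcl12, Fzd1 and Lef1 rose in CD106+ libraries, with log2 fold changes of 2.27, 2.34, 2.96, 1.51 and 2.13 (edgeR adjusted p = 3.0e-04, 5.9e-04, 8.8e-05, 4.6e-04 and 0.0010). Fzd1 lost its call without either CD106- library (edgeR adjusted p = 0.10 and 0.056) and Lef1 without CD106- library 1 (0.064). Among the 13 genes lower in both were Itga6, an integrin chain of epithelial and endothelial cells, the gap junction protein Gja1, the tight junction protein F11r, the semaphorin Sema3c and Spry2, with log2 fold changes in the libraries of -1.22, -1.03, -1.08, -1.24 and -0.96. Without CD106- library 2 none of these 5 passed (edgeR adjusted p = 0.19, 0.69, 0.24, 0.081 and 0.25). F11r, Sema3c and Spry2 also lost the call without CD106- library 1 (0.12, 0.057 and 0.29), and Spry2 without CD106+ library 2 (0.085). The collagens Col1a1 and Col6a1, which differed by 1 or more between Vcam1-high and Vcam1-low cells in saline and not in dexamethasone, rose in CD106+ libraries by 2.85 and 3.67 (edgeR adjusted p = 7.6e-07 and 3.6e-08).

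Markers of other cell types were present in single cells of both sets. Epcam, the defining epithelial marker, and Upk3b of mesothelium had no count in any of the 26 cells, which allows a share of up to 11.5% of cells with a count of either gene and sets no limit on cells that carry other markers of these types. Epithelial markers summed to 3920 and 2936 CPM in Vcam1-high dexamethasone cells 15 and 12, and mesothelial markers to 1654 and 737 CPM in Vcam1-high dexamethasone cell 10 and saline cell 3. Pecam1, the endothelial adhesion molecule, reached 100 CPM in dexamethasone cell 9 and in saline cells 1 and 9 among Vcam1-high cells, and in saline cells 6, 7 and 10 among Vcam1-low cells. The 20 endothelial markers summed to 0, 7.68 and 5464 CPM (lowest, median, highest) in Vcam1-high dexamethasone cells, against 85.6, 713 and 1062 CPM in Vcam1-low dexamethasone cells, and to 296, 1563 and 15828 CPM in Vcam1-high saline cells, against 88.2, 5396 and 11733 CPM in Vcam1-low saline cells. Of 16 endothelial markers described, 0 were counted as higher and 1, Sox17, as lower in Vcam1-high cells, near the shares over all genes described (9.12% and 7.84%). Without cells at 1000 CPM of Acta2 or more, Cdh5, Kdr, Tie1, Cldn5 and Ptprb were also counted as lower. Among cells with 500 CPM of Tcf21 or more, Calcrl, Kdr and Ptprb were counted as lower and Sox17 was not. In CD106+ libraries, 9 of 14 endothelial markers tested passed upwards. With the 6 cells at 100 CPM of Pecam1 or more left out, the direction of the 75 genes followed as higher or lower was kept, except for Spry4 (0.036).

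Immune markers summed to over 100 CPM in saline cells 8 and 3 among Vcam1-high cells and in saline cell 2 and dexamethasone cell 11 among Vcam1-low cells, and Ptprc reached 100 CPM in saline cell 8 alone (460 CPM). Haemoglobin transcripts summed with the other erythroid genes to 186700 CPM in Vcam1-high dexamethasone cell 14 and to 81.9 CPM or less in every other cell. Dexamethasone cell 9, Vcam1-high, carried both Xist (464 CPM) and Y-linked genes (263 CPM in sum), and no other cell held 100 CPM or more of both. Leaving out each cell in turn left 605 to 760 genes counted as higher and 525 to 641 as lower. Apart from the cells with Pecam1, the joint part of such cells in the differences above was not tested. Over pairs of cells of the same treatment and 7130 genes, the median Spearman correlation was 0.28 between Vcam1-high cells, 0.28 between Vcam1-high and Vcam1-low cells and 0.27 between Vcam1-low cells in dexamethasone, and 0.29, 0.29 and 0.26 in saline, so over all genes cells of a set were about as unlike each other as cells of different sets.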

How the data were processed

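The genome build was mm10 per the submitters' processing notes, which also list TopHat2, Bowtie2, Trim Galore, Partek, HOMER and MACS2 without roles or versions. How reads were counted, and whether by strand, is not given in the sources used here, which leaves overlapping genes, antisense genes and near-identical copies uncertain. The authors deposited expected counts per gene symbol for 24371 genes in each table. Of all values of a cell, zeros included, 0.82 to 2.51% were not whole. The members, gene lists and comparisons were chosen with earlier results of these data known.

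For cells, CPM used the column total. Differences were taken in mean log2(CPM + 1), Vcam1-high minus Vcam1-low, within each treatment, with no test, no clustering and no doublet caller. No cell columns were identical (0 pairs). Genes named were the 12 higher and 8 lower with the largest smaller of the 2 within-treatment differences among genes with a value above 0 in 50% or more of the cells of the higher set, up to 4 members of each of 30 lists by mean CPM, and fixed markers. Some genes that met these rules are not reported here. Further members of the matrix fibroblast, myofibroblast and pathway lists and of the genes shared with the libraries were named after their values were seen. For libraries, expected counts were rounded and tested with edgeR 4.0.16 (filterByExpr, TMM, robust quasi-likelihood) in R 4.3.3, with CPM on TMM-scaled totals. The test was checked on simulated counts. Promoters came from RefSeq (GRCm38.p6). Rn45s held 0.902 to 2.86% of library counts. Intervals do not cover the spread between animals. Those on summed reads treat reads as independent, although reads carry no molecular identifiers, and leave out the spread between cells.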

Additional observations from a re-analysis of the deposited data

Results flagged for a closer look

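In 30 groups of 4 to 10 cells, each made of 1 set within 1 treatment and 1 quantity, 11 values stood apart from the rest of their group by Dixon's criterion. Some cells were flagged for more than 1 quantity. Chance alone meets this criterion in about 1 in 20 groups of normally distributed values. The 11 Vcam1-high dexamethasone cells exceed this group size and were not looked at. Many of these sums are skewed or hold zeros, and the rate for such values was not tested. Vcam1-low saline cell 6 held 89.1 CPM of Vcam1, just under the threshold, while the other 5 of its group held 3 CPM or less. Vcam1-high saline cell 1 had the highest share of the ribosomal RNA precursor Rn45s in its group, at 3.88% of its counts. The myofibroblast markers of Vcam1-low saline cell 11 summed to 58534 CPM. The epithelial markers of Vcam1-low dexamethasone cell 11 summed to 12554 CPM and its immune markers to 454 CPM. Vcam1-low saline cell 2 had epithelial and immune sums of 323 and 132 CPM, and Vcam1-high saline cell 8 an immune sum of 1823 CPM. The erythroid genes summed to 81.9 CPM in Vcam1-low dexamethasone cell 1, to 0.864 CPM in Vcam1-high saline cell 1 and to 0.569 CPM in Vcam1-low saline cell 4.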

How the results depend on the processing

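In cells, counts of genes moved with the pseudocount, the threshold, the measure of difference and whether treatment was kept apart. With log2(CPM + 10), 247 genes were higher and 222 lower in both treatments, 968 and 1225 in dexamethasone and 1399 and 1157 in saline, and 24.2% of the genes higher in cells were higher in CD106+ libraries. With any Vcam1 count as the threshold, which leaves 1 Vcam1-low dexamethasone cell, 1072 genes were higher in both treatments, 3050 in dexamethasone, and the shared percentage was 13.9%. At 200 CPM, 2 myofibroblast markers were lower. By log2 ratios of mean CPM, 1126 genes were higher in both treatments, 3324 in dexamethasone, 4 matrix fibroblast markers were higher and the shared percentage was 10.4%. Ignoring treatment gave 1270 higher and 1740 lower genes. The shared percentage was 13.9% with cells thinned to 1 total and 13.8% without cells under 50% of the median total.

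Without cells under 500 CPM of Tcf21, chosen after seeing the data, 2 matrix fibroblast markers were higher, 0 myofibroblast markers lower and the shared percentage was 6.78%. Combined differences turned sign for Mfap4 (-0.64), Macf1 (-0.72), Limch1 (-1.42), Fgf10 (-1.01), Npnt (-0.63), Figf (-1.20), Acta2 (0.18), Enpp2 (0.74), Myh11 (0.63), Tgfbi (0.073), P2ry14 (0.25), Fn1 (-0.87), Ogn (-0.35), Tnc (1.37), Id3 (0.26), H19 (1.03), Igf2 (1.66), Aldh1a1 (0.50), Hsd11b1 (-1.32), Col14a1 (-1.25) and Cxcl12 (0.49). Among the 75 genes followed as higher or lower, the sign also turned for Nfkb1 at 200 CPM (-0.53), for Glul with any Vcam1 count as the threshold (-1.23), for Tnc by log2 ratios of mean CPM (0.19) and for Spry4 without cells at 100 CPM of Pecam1 or more (0.036). The cause was not tested. Without cells at 1000 CPM of Acta2 or more, also chosen after seeing the data, the counts were 6 and 3 and the percentage 9.98%. No cell held 100 CPM of Epcam, so leaving such cells out changed nothing.

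With 1 cell left out, 605 to 760 genes were higher and 525 to 641 lower in both treatments, 1706 to 2102 and 1953 to 2158 in dexamethasone, 2092 to 2418 and 1753 to 2014 in saline, 11 to 14 matrix fibroblast markers were higher and 5 to 8 myofibroblast markers lower, and the shared percentages were 13.5 to 18.2% and 5.86 to 8.29%. With 1 library left out, where a lone library is assumed to vary like the other fraction, 464 to 1432 genes were higher and 79 to 1324 lower. Other library settings (other size factors, no filter, no Rn45s, DESeq2, limma-voom) kept both counts within 1.5 times. Paired by replicate number, the replicate block gave 855 higher and 421 lower genes, and Acta2 and Tgfbi then passed upwards. Same-numbered libraries share the leading number of their column names, and the labels do not say what it stands for. Their deviations correlated at -1.1e-04, which with 2 libraries per fraction cannot show whether they were paired. Col13a1 lost its call by DESeq2 (adjusted p = 0.05). By limma-voom, Loxl1 and Pdk4 lost theirs (adjusted p = 0.069 and 0.091) and Igf2 passed downwards (0.04), and by DESeq2 H19 and Igf2 passed downwards (adjusted p = 0.018 and 0.021). With 4 Vcam1-low dexamethasone cells and 1 sample per treatment, the depth and number of cells limit every comparison of cells to a description.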
